A study of Mus musculus with 4 samples.

Results

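The 26 genes described here were close to absent from macrophages of MycCaP tumours and present in both samples of macrophages from MycCaP-BMP4 tumours. They are the genes with under 1 CPM (counts per 1000000 gene counts of a library) in both MycCaP libraries and at least 5 CPM in both MycCaP-BMP4 libraries, out of 39179 genes counted. The limits took 30 genes, and 4 of them (Bmp4, Wif1, Orm3 and Vit) were left out by name. The genes were thus chosen by their measured CPM in these same 4 libraries, so their difference between the groups is described and not tested, and the values support nothing beyond that description.

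RNA was sequenced from tumour-associated macrophages (TAMs), sorted as cells positive for CD45, CD11b and F4/80 and negative for GR1, from subcutaneous tumours in FVB mice. MycCaP is a mouse prostate cancer cell line driven by a MYC transgene, and MycCaP-BMP4 is the same line made to overexpress BMP4. The age and sex of the mice, the promoter and species of the BMP4 construct, whether the MycCaP-BMP4 cells were 1 clone, and whether libraries came from separate mice or from pools were not stated. The labels give all 4 libraries the same cell type, while only the MycCaP-BMP4 titles name F4/80. Each group had 2 libraries, so p-values reflect the spread of these samples alone, and that spread could be technical.

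BMP4 is a secreted growth factor that binds paired serine/threonine kinase receptors, which phosphorylate SMAD proteins that then turn on target genes such as Id1 and Smad6. Osteogenic tumours hold tumour epithelium, fibroblasts, vessels and bone-forming cells beside macrophages. A sorted macrophage sample can carry some RNA of such cells, and a gene at a few CPM can come from macrophages or from a small number of other cells.

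The libraries held 23058263 to 24967143 counts in genes, where 3 counts, taken as the floor of detection, are worth 0.120 to 0.130 CPM. Values are given for replicates 1 and 2 in that order. Genes of the sort markers were present in all 4 libraries, but lower in MycCaP-BMP4 replicate 1 than in the other 3: Adgre1, the gene of F4/80, stood at 791 and 893 CPM (MycCaP), then 166 and 630.2 CPM (MycCaP-BMP4), and Itgam, the gene of CD11b, at 654 and 851 against 145 and 612 CPM. The 15 pan-macrophage genes summed to 33709 and 31626 CPM (MycCaP), then 8115 and 26844 CPM (MycCaP-BMP4), and none was at 0. Of these 15, 12 were lower and 0 higher in both MycCaP-BMP4 libraries. The 16 tumour epithelium genes summed to 144 and 189 CPM against 1974 and 718 CPM, with most of the MycCaP-BMP4 sum in Krt15 and Cldn3. Krt5 was at 0 in every library, Krt14 and Krt18 at 0.130 CPM or less, and Epcam under 1 CPM. Of the 16, 8 were higher and 1 lower in both MycCaP-BMP4 libraries. The lower gene was Cdh1, at 4.73 and 3.94 against 0.370 and 1.91 CPM, and Krt8 overlapped at 15.2 and 18.8 against 35.0 and 14.7 CPM. Of all 21856 genes with a count, both MycCaP-BMP4 values lay above both MycCaP values for 29.2% and below them for 18%. In bulk RNA, fewer cells of a type and less RNA per cell cannot be told apart. The part of either change in the values below was not tested.

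The word "on" holds for the MycCaP-BMP4 libraries, but "off" does not hold strictly for the MycCaP libraries. Of the 26 genes, 24 had at least 1 count in both MycCaP libraries, 19 had at least 3 counts in both, and 2 (Gm11212 and Il11) had fewer than 3 in both. The 26 genes together took 10.4 and 13.2 CPM of the MycCaP libraries and 527 and 209 CPM of the MycCaP-BMP4 libraries. Of the 26466 genes under 1 CPM in both MycCaP libraries, 0.113% reached 5 CPM in both MycCaP-BMP4 libraries. A further 99 reached it only in MycCaP-BMP4 replicate 1 and 10 only in replicate 2. Replicate 2 therefore set the limit for most genes. Without MycCaP-BMP4 replicate 2 the limits would take 125 genes, and without MycCaP replicate 2 they would take 47, in each case with the 26 among them.

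**Figure D1:**
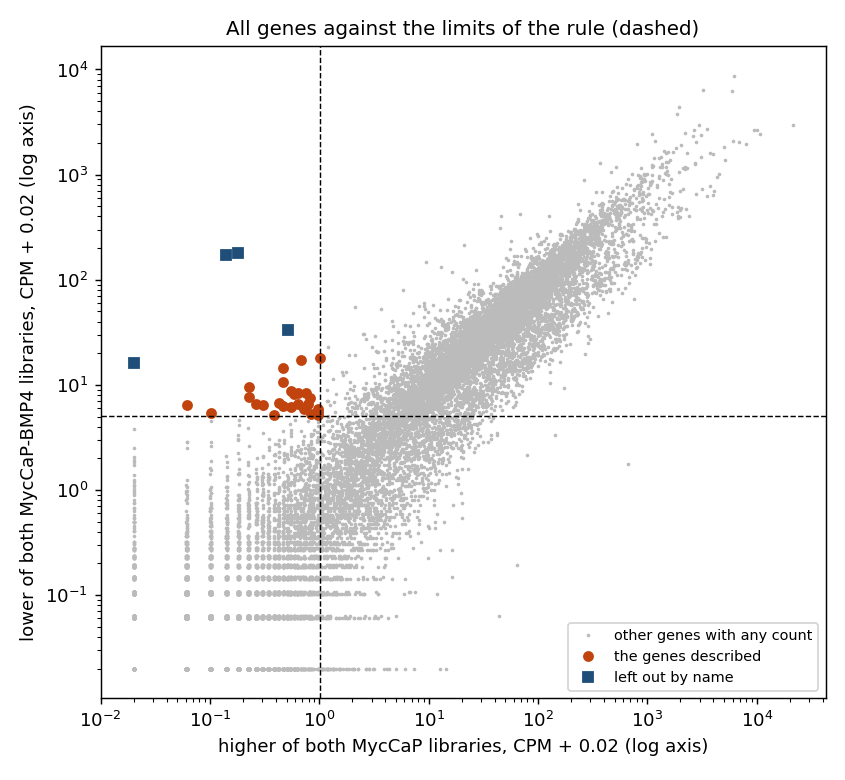
Each point is a gene with any count, placed by its higher CPM in the MycCaP libraries (horizontal, log axis) and its lower CPM in the MycCaP-BMP4 libraries (vertical, log axis), with 0.02 CPM added for display. Dashed lines mark 1 and 5 CPM, orange points the 26 genes and blue squares the 4 genes left out by name, which reach up to 179 CPM while the 26 stay at 17.95 CPM or below.

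The genes nearest to the limits show how the set was cut. Inside the MycCaP limit lay Ap3b2 at 0.984 CPM and Tbx18 and Tph1 at 0.943 CPM in their higher library, and outside lay Fhl2 at 1.15, Chn1 at 1.16 and Dlx2 at 1.19 CPM. Inside the MycCaP-BMP4 limit lay Fsd2 at 5.12, Tph1 at 5.16 and Wfdc6b at 5.25 CPM in their lower library, and outside lay Adra1b at 4.99, Crisp1 at 4.64 and Lad1 at 4.60 CPM.

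Stretches before transcription starts are shown for 4 genes, because they let a reader see what kind of start these genes have and whether a BMP-responsive element stands there. The sequences come from RefSeq on GRCm38.p6, cover the 250 bases before a start and run 5′ to 3′ on the gene's strand, with capitals for any of 5 motifs searched. Ap3b2 (chr7:81493926-81494175, minus strand) and Osbpl6 (chr2:76406258-76406507, plus strand) have the highest mean CPM, not corrected for length, of the genes with an entry. Bdnf (chr2:109694159-109694408, plus strand) and Tph1 (chr7:46667378-46667627, minus strand) are shown at the start that holds GGCGCC, the GC-rich element bound by SMAD1 and SMAD5, which in both lies inside the annotated gene.
Ap3b2: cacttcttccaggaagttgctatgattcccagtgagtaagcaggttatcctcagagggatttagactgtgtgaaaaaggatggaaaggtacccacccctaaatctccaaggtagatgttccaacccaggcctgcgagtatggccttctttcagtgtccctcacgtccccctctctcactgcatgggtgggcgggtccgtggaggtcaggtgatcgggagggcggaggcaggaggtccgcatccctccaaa
Osbpl6: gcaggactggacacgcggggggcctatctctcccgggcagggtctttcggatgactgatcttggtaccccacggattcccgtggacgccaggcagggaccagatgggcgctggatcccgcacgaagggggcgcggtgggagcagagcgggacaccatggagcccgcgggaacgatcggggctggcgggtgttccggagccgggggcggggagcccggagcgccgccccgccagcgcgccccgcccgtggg
Bdnf: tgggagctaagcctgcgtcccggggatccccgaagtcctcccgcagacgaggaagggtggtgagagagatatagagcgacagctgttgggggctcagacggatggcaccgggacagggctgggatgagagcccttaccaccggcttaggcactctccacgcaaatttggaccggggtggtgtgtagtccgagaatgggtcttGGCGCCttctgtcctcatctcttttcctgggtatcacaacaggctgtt
Tph1: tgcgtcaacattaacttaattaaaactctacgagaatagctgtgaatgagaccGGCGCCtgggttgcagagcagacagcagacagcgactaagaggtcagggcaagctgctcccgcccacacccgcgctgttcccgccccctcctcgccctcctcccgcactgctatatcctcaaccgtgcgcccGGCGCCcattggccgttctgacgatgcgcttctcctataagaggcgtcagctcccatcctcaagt
The Bdnf stretch holds GGCGCC once, from 48 bases before the start, and the Tph1 stretch holds it at 197 and 65 bases before the start.

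Entries were found for 18 of the 26 genes, with 30 starts between them. None was listed for Aloxe3, Gm11212, Gm16310, Krt6a, Nxf3, Prkg2, Tmem100 and Usp43. GGCGCC stood in 4 of the 30 stretches (13.3%, in Bdnf, Plekhg4, Spaca6 and Tph1) and in 9.59% of the 32851 stretches of the whole reference table, both strands searched. The palindromic SMAD element GTCTAGAC stood in none of the 30 and in 0.167% of all, the RUNX core TGTGGT in 3 (10%) against 14.0%, and the TATA box TATAAA in 3 (10%) against 12.4%. The AP-1 motif TGANTCA stood in 4 (13.3%, in Atp13a4, Bdnf, Il11 and Scel) against 6.75%. Starts of 1 gene are not independent, and a match describes letters only. The stretches of Plekhg4 and Spaca6 with GGCGCC lie within the annotated gene and are not shown. The median GC content was 54.6% over the 30 and 52.4% over all.

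Of the 26 genes 3 encode secreted signals. Gene spans below are on GRCm38. Bdnf (chr2:109674700-109727007) encodes a neurotrophin that signals through TrkB and p75 receptors, and it had 0.561 and 0.615 CPM (MycCaP), then 24.9 and 8.28 CPM (MycCaP-BMP4). Il33 (chr19:29925114-29960718) encodes an alarmin cytokine of barrier and stromal cells that activates mast cells and type 2 lymphocytes, and it had 0.481 and 0.615 CPM (MycCaP), then 13.2 and 6.51 CPM (MycCaP-BMP4). Il11 (chr7:4772373-4782859) encodes a cytokine of the IL-6 family that signals through gp130, and it had 0.0801 and 0.0820 CPM (MycCaP), then 10.6 and 5.38 CPM (MycCaP-BMP4). All 3 were higher in MycCaP-BMP4 replicate 1 than in replicate 2, and Il11 had only 2 and 2 counts in the MycCaP libraries. Pooled over each group, the MycCaP-BMP4 libraries exceeded the MycCaP libraries 28.6-fold (95% interval 19.8 to 43.0) for Bdnf, 18.2-fold (95% interval 12.3 to 27.9) for Il33 and 99.5-fold (95% interval 38.5 to 367) for Il11. Intervals of this kind are exact binomial and cover counting error only.

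Receptors for these signals were measured too, and none was under the MycCaP limit and over the MycCaP-BMP4 limit. Il1rl1, the IL-33 receptor, had 4.69 and 7.42 CPM (MycCaP), then 4.15 and 15.7 CPM (MycCaP-BMP4), and the groups overlapped. Il11ra1, the IL-11 receptor chain, was lower in both MycCaP-BMP4 libraries, at 57.1 and 36.3 against 12.7 and 27.1 CPM. Il6st, which encodes gp130, had 32.4 and 44.3 against 41.5 and 65.7 CPM, again with overlap. Of the BDNF receptors, Ngfr (p75) had 7.09 and 12.3 against 3.66 and 1.21 CPM, lower in both, and Ntrk2 (TrkB) had 1 count in all 4 libraries together.

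Genes of surface-covering and glandular epithelium formed the next group. Krt6a (chr15:101689910-101694307), a keratin of stressed or wounded epithelium, had 0.0801 and 0.656 CPM (MycCaP), then 37.3 and 17.3 CPM (MycCaP-BMP4). Aloxe3 (chr11:69125896-69149115), a lipoxygenase of the skin barrier, had 0.0801 and 0.205 CPM (MycCaP), then 20.4 and 9.50 CPM (MycCaP-BMP4). Scel (chr14:103513342-103612797), which encodes the cornified envelope protein sciellin, had 0.441 and 0.533 CPM (MycCaP), then 8.72 and 6.07 CPM (MycCaP-BMP4). In all 3 MycCaP-BMP4 replicate 1 was higher than replicate 2, and Scel sat closest to the lower limit in CPM. Lamb3 (chr1:193207699-193343878), a chain of the basement membrane laminin-332, had 0.120 and 0.205 CPM (MycCaP), then 19.7 and 7.59 CPM (MycCaP-BMP4). Wfdc6b (chr2:164613522-164618212), of the whey acidic protein family of protease inhibitors, had 0.0801 and 0.820 CPM (MycCaP), then 19.1 and 5.25 CPM (MycCaP-BMP4). The MycCaP libraries differed for Krt6a and Wfdc6b, with 2 and 16 and 2 and 20 counts.

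Close relatives and partners of these genes were uneven. Lama3, which encodes a laminin chain that pairs with that of Lamb3, was higher in both MycCaP-BMP4 libraries at 2.36 and 6.40 against 15.3 and 6.68 CPM, with MycCaP replicate 2 just under MycCaP-BMP4 replicate 2. Krt6b shares 45.9% of the 31-base words of the Krt6a transcripts but had 1 count at most in any library. Krt16 reached 1.07 CPM at most, and Krt17 had 1 count at most. Alox12b, which acts with Aloxe3 in the epidermis, had no count in any library. The Wfdc6b transcripts share 45.7% of their 31-base words with Wfdc6a, which had 3.97 and 3.65 against 31.2 and 11.1 CPM, so the separate values of these 2 genes are uncertain. Of 11 measured keratinocyte markers, 6 (Krt1, Krt5, Dsg3, Ivl, Krtdap and Lor) were at 0 in every library, and the list summed to 2.04 and 1.27 CPM against 5.35 and 3.95 CPM. Sbsn was the only one of the 11 higher in both MycCaP-BMP4 libraries, at 0.921 and 0.410 against 3.99 and 2.82 CPM. Over all genes with a count, 29.2% were higher in both.

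Membrane receptors, pumps and exchangers followed. Ephb3 (chr16:21204755-21223305), a receptor tyrosine kinase for ephrin-B ligands, had 0.801 and 0.779 CPM (MycCaP), then 17.4 and 7.50 CPM (MycCaP-BMP4). Tmem100 (chr11:90030348-90036508), a membrane protein known as induced by BMP signalling through ALK1 in endothelium, had 0.441 and 0.369 CPM (MycCaP), then 18.5 and 6.25 CPM (MycCaP-BMP4). Atp13a4 (chr16:29395853-29544864), a P5-type ATPase, had 0.561 and 0.328 CPM (MycCaP), then 24.9 and 8.20 CPM (MycCaP-BMP4). These 3 lay at similar CPM in MycCaP-BMP4 replicate 2 and all were more than 2 times that in replicate 1. Slc9b2 (chr3:135307700-135345387), a sodium/proton exchanger, differed, with 0.240 and 0.287 CPM (MycCaP), then 6.75 and 6.42 CPM (MycCaP-BMP4), almost level between the MycCaP-BMP4 libraries at a ratio of 1.05. The ephrin gene Efnb2 was higher in both MycCaP-BMP4 libraries, at 2.76 and 6.03 against 105 and 37.4 CPM, and Acvrl1, which encodes ALK1, was lower in both, at 85.5 and 74.6 against 13.5 and 42.2 CPM. By edgeR's quasi-likelihood test Efnb2 had a log2 fold change of 3.82 with an adjusted p of 0.112 and Acvrl1 one of -1.64 with an adjusted p of 0.232, so neither passed 0.05. Of 15 endothelial genes, 1 was higher and 3 lower in both MycCaP-BMP4 libraries, beside 29.2% and 18% of all genes with a count. The higher gene, Prox1, stayed at 0.0434 CPM or less. Cdh5, a defining endothelial gene, had 4.81 and 18.5 against 13.7 and 3.99 CPM, with overlap.

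Vesicle and lipid traffic genes formed a further group. Ap3b2 (chr7:81460399-81493925), the beta subunit of the neuronal form of the AP-3 adaptor complex, had 0.761 and 0.984 CPM (MycCaP), then 79.2 and 18.0 CPM (MycCaP-BMP4), the highest mean CPM of the 26 before any correction for length and the widest gap between the MycCaP-BMP4 libraries, a ratio of 4.41. Osbpl6 (chr2:76406508-76600647), an oxysterol-binding protein family member, had 0.441 and 0.0410 CPM (MycCaP), then 40.4 and 14.6 CPM (MycCaP-BMP4). Rab3b (chr4:108879063-108943324), a GTPase of regulated secretion, had 0.240 and 0.123 CPM (MycCaP), then 14.6 and 6.55 CPM (MycCaP-BMP4). The general AP-3 subunits Ap3b1 and Ap3d1 overlapped between groups, at 104 and 127 against 72.6 and 112 CPM and 115 and 130.1 against 100.4 and 149 CPM. The subunits Ap3m2, at 19.7 and 20.8 against 6.79 and 12.3 CPM, and Ap3s1, at 68.8 and 68.7 against 54.1 and 61.7 CPM, were lower in both MycCaP-BMP4 libraries. Rab3a and Rab3d overlapped, and Osbpl7 was higher in both, at 11.2 and 12.8 against 25.6 and 16.7 CPM. Of 12 neuroendocrine and neuronal genes, 4 were at 0 in every library, among them Snap25 and Gap43. In both MycCaP-BMP4 libraries 2 were higher and 3 lower, beside 29.2% and 18% of all genes with a count. Most of the sum of the 12 genes was Rbfox3, at 7.89 and 9.43 against 53.6 and 19.0 CPM.

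Enzymes and regulators made up another group. Prkg2 (chr5:98929773-99037351), a cGMP-dependent protein kinase known for its role in growth plate cartilage, had 0.441 and 0.328 CPM (MycCaP), then 28.0 and 10.5 CPM (MycCaP-BMP4). Tph1 (chr7:46644641-46672537), the rate-limiting enzyme of serotonin synthesis outside the brain, had 0.641 and 0.943 CPM (MycCaP), then 17.3 and 5.16 CPM (MycCaP-BMP4). Usp43 (chr11:67854523-67922153), of the ubiquitin-specific protease family, had 0.521 and 0.738 CPM (MycCaP), then 20.9 and 8.37 CPM (MycCaP-BMP4). Prkg2 was 1 of 4 genes with at least 10 CPM in both MycCaP-BMP4 libraries, beside Ap3b2, Osbpl6 and Krt6a, whereas Tph1 only just passed in replicate 2. Plekhg4 (chr8:105373274-105382862), a guanine nucleotide exchange factor for small GTPases, had 0.761 and 0.738 CPM (MycCaP), then 10.2 and 6.51 CPM (MycCaP-BMP4). Tbx18 (chr9:87702800-87731260), a T-box transcription factor of mural and other mesenchymal cells, had 0.761 and 0.943 CPM (MycCaP), then 13.5 and 5.51 CPM (MycCaP-BMP4). Nxf3 (chrX:136072099-136085255), of the messenger RNA export factor family, had 0 and 0.410 CPM (MycCaP), then 28.3 and 6.68 CPM (MycCaP-BMP4). Nxf3 was 1 of 2 genes with no count in MycCaP replicate 1. Ddc, which encodes the next enzyme of serotonin synthesis, stayed under 0.3 CPM in every library, and the general export factor Nxf1 had 85.6 and 93.0 against 233 and 188 CPM. The 12 mural cell genes summed to 35.8 and 72.5 CPM against 103 and 56.7 CPM, with 4 higher and 4 lower in both MycCaP-BMP4 libraries, and Cnn1 and Myh11 reached 0.217 and 1.07 CPM at most. Of 10 mast cell genes, a cell type known to make serotonin, 6 were higher and 1 lower, and Cpa3 had 0.841 and 2.67 against 5.22 and 9.58 CPM, highest in MycCaP-BMP4 replicate 2. The lower gene was the defining marker Kit, at 3.60 and 4.76 against 2.10 and 2.26 CPM, and Fcer1a and Ms4a2 stayed under 0.4 CPM in every library. Mcpt8, counted among the higher mast cell genes, stayed at 0.0434 CPM or less. Of 14 cartilage genes 5 were higher and 2 lower, with Sox9 at 10.2 and 18.7 against 145 and 64.7 CPM and Col2a1 at 0 and 0 against 1.07 and 3.82 CPM. The lower cartilage genes were Ucma, at 10.4 and 12.7 against 0.0411 and 0 CPM, and Col11a1, at 7.17 and 13.2 against 4.11 and 1.78 CPM. Ihh and Col9a1, counted among the higher, stayed under 0.31 CPM. Over all genes with a count, 29.2% were higher and 18% lower in both MycCaP-BMP4 libraries. The mural cell, mast cell and cartilage counts were not tested against these shares.

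The remaining coding genes were Spaca6, which encodes a sperm protein needed for fusion with the egg, and Fsd2. Spaca6 (chr17:17827158-17843009) had 0.481 and 0.697 CPM (MycCaP), then 5.92 and 6.85 CPM (MycCaP-BMP4) and was the only one of the 26 that was higher in MycCaP-BMP4 replicate 2. Fsd2 (chr7:81533308-81566944) had 0.360 and 0.287 CPM (MycCaP), then 6.95 and 5.12 CPM (MycCaP-BMP4), the lowest mean CPM of the set. Ap3b2 and Fsd2 lie on the same strand of chromosome 7, 39382 bases apart, and their starts, 73019 bases apart, are the only pair of the 26 within 200 kb. Their neighbours were mixed: Cpeb1, 4933 bases from Ap3b2, was higher in both MycCaP-BMP4 libraries at 0.401 and 0.861 against 5.72 and 2.08 CPM, Whamm overlapped at 12.7 and 17.6 against 17.6 and 14.8 CPM, and BC048679 had no count.

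Of the 26 genes 23 were annotated as protein coding and 3 were not. Mir17hg (chr14:115042879-115046727), the long non-coding host transcript of the Mir17 microRNA cluster and a known MYC target, had 0.761 and 0.943 CPM (MycCaP), then 10.7 and 5.81 CPM (MycCaP-BMP4). Its pooled difference was the smallest of the set, 9.77-fold (95% interval 7.10 to 13.8), and the counts are of the host transcript. The microRNA genes had no count. They share exon bases with Mir17hg on the same strand, so their levels cannot be read from that absence. Gm11212 (chr4:63350411-63353846), annotated as an unprocessed pseudogene, had 0 and 0.0410 CPM (MycCaP), then 13.8 and 6.46 CPM (MycCaP-BMP4), with 0 and 1 counts in MycCaP TAMs. With 1 count in 1 group its pooled ratio was 504 (95% interval 90.1 to 19957). It lies in the orosomucoid cluster of acute-phase genes, 2247 bases from Orm1 and 2315 from Orm3, which had 1.20 and 2.09 against 124 and 54.5 CPM and 0.481 and 0.492 against 80.8 and 33.2 CPM, while Orm2, 8602 bases away, had 1.28 and 2.09 against 2.59 and 2.17 CPM. Of the 31-base words in its annotated transcript, 1.70% occur in Orm1, 4.42% in Orm2 and 0.340% in Orm3.

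Gm16310 (chr16:92094568-92096490) is annotated inside an intron of Mrps6 on the same strand, and it had 0.280 and 0.533 CPM (MycCaP), then 15.3 and 8.63 CPM (MycCaP-BMP4). Mrps6, a mitochondrial ribosome gene, had 20.7 and 20.4 against 262 and 101 CPM. Slc5a3, a myo-inositol transporter gene 7094 bases away on the same strand, had 15.3 and 21.0 against 477 and 215 CPM. The MycCaP-BMP4 values of Mrps6 and Slc5a3 lay above their MycCaP values, which for Gm16310 is fixed by the limits. Reads of unspliced Mrps6 RNA cannot be told apart from those of Gm16310.

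Overlap in the annotation limits some values. Of the 26 genes 10 share exon bases with another annotated gene and 7 of these share them with a gene on the opposite strand. The library kit was directional per the labels, but the strand setting of the counting was not stated, so these values are uncertain. Among the overlapping genes counted in the files, none that shares exon bases reached 2 CPM. Of 75 other protein-coding genes within 50 kb of the 23 genes that have such neighbours, 61 had a count, and 27 of these (44.3%) were higher and 9 (14.8%) lower in both MycCaP-BMP4 libraries. Over all genes with a count, of any type and not protein coding alone, these shares were 29.2% and 18%. The 2 sets are thus unlike, and nothing is read from the difference. Krt6b and Camk1g, counted among the higher neighbours, stayed at 0.0434 CPM or less.

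**Figure D2:**
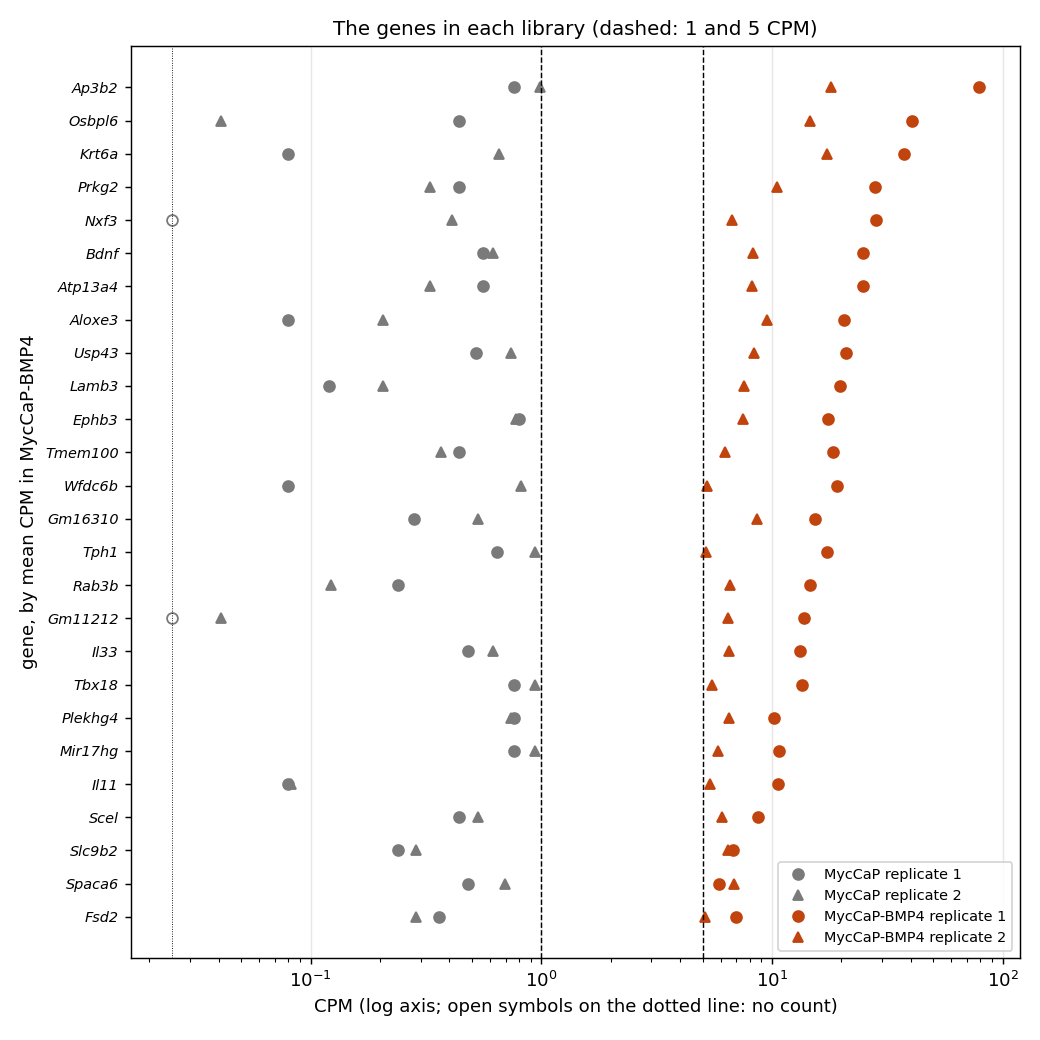
Each row is 1 of the 26 genes, ordered by mean CPM in the MycCaP-BMP4 libraries, and each symbol is 1 library on a log axis of CPM (grey for MycCaP, orange for MycCaP-BMP4, circles for replicate 1 and triangles for replicate 2, open symbols on the dotted line for no count). The orange circles lie right of the triangles in every row except Spaca6, and no gene has more than 0.984 CPM in a MycCaP library.

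Levels of different genes can be compared only per length of transcript. Divided by the length of all annotated exons, the mean level in MycCaP-BMP4 TAMs ran from 0.904 CPM per kb for Spaca6 to 16.4 CPM per kb for Gm11212, with a median of 2.84. On this scale the short transcripts of Gm11212, Gm16310 (12.5), Wfdc6b (12.4) and Krt6a (11.3) came before Ap3b2 (7.72). Among these 5 the MycCaP-BMP4 libraries of neighbouring genes overlapped, so their order is loose, whereas those of Spaca6 did not overlap with those of Slc9b2, next at 1.20. Tmem100 stood at 6.99 and Nxf3 at 5.74 CPM per kb.

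The limits used both MycCaP-BMP4 values, though not which of them was the higher. The choice is still not neutral to the order of these libraries. Of genes under 1 CPM in both MycCaP libraries, 99 reached 5 CPM only in replicate 1 and 10 only in replicate 2. Of the 26 genes, 25 were higher in replicate 1 than in replicate 2, beside 63.6% of the 9821 genes with at least 5 CPM in both of these libraries. At least a 2-fold excess in replicate 1 was seen in 18 of the 26, beside 10.9% of those 9821 genes, and at least a 2-fold excess in replicate 2 in none, beside 10.9%. With TMM or DESeq2 size factors in place of library totals, 13 of the 26 had a 2-fold excess in replicate 1. With 1 library against 1 there is no test. The 9821 genes were not limited to those under 1 CPM in MycCaP, so these shares compare unlike sets. The median ratio was 2.28 over the 26 and 1.18 over the 9821 genes. The largest ratios were those of Ap3b2 (4.41), Nxf3 (4.24), Wfdc6b (3.64), Tph1 (3.36) and Atp13a4 (3.04), and the smallest those of Spaca6 (0.864), Slc9b2 (1.05), Fsd2 (1.36), Scel (1.44) and Plekhg4 (1.57).

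The same ratio was computed for marker lists, over their genes with at least 5 CPM in both MycCaP-BMP4 libraries. Its median was 2.51 for 8 tumour epithelium genes, 2.74 for 8 BMP target genes, 1.70 for 8 fibroblast genes, 1.95 for 3 mural cell genes, 2.25 for 3 cartilage genes, 1.90 for 4 hepatocyte genes, 1.78 for 2 osteoblast genes, 0.387 for 7 osteoclast genes and 0.313 for the 15 pan-macrophage genes. Bmp4 itself had a ratio of 3.24, with 0.160 and 0.0410 CPM (MycCaP), then 581 and 179 CPM (MycCaP-BMP4). The genes left out with it had ratios of 2.42 for Wif1, 2.43 for Orm3 and 1.54 for Vit. Several unrelated lists thus had medians near that of the 26. Above 1, of lists with at least 3 such genes, also lay Wnt pathway (2.76), erythroid and platelet (1.28) and BMP ligand, receptor and antagonist (1.17). Below 1, beside the macrophage and osteoclast lists, lay endothelium (0.880), mast cell (0.621), dendritic cell (0.592) and adipocyte (0.284). The endothelium median rests on 3 genes, Pecam1 (0.880), Tie1 (1.53) and Lyve1 (0.200). Most endothelial genes short of 5 CPM in a library lay above 1, among them Cdh5 (3.44), Kdr (3.06) and Plvap (3.89). Only Vwf (0.522) and Prox1 (0.948), the latter at 0.0434 CPM or less, lay below. The adipocyte median also rests on 3 genes, Pparg (0.284), Lpl (0.169) and Fabp4 (2.29). Which cells carried the RNA of the 26 genes was not tested.

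**Figure D3:**
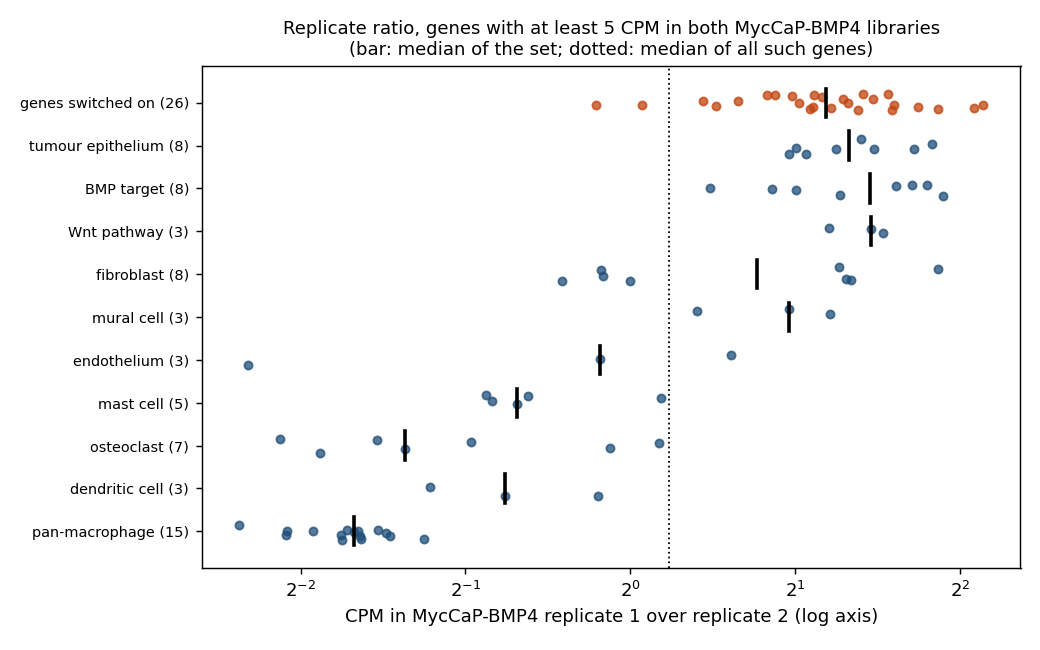
Each point is a gene with at least 5 CPM in both MycCaP-BMP4 libraries, placed by its CPM in replicate 1 over that in replicate 2 (log axis), for the 26 genes (orange) and 10 marker lists (blue, number of genes in brackets). Black bars are medians, 2.28 for the 26 genes and 0.313 for the pan-macrophage genes, and the dotted line is the median of 1.18 over all 9821 such genes.

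None of the 26 genes stood in any of the 24 lists of cell type and pathway genes. Of 20 BMP target genes, 9 were higher and 1 lower in both MycCaP-BMP4 libraries: Id1 had 9.13 and 8.16 against 182 and 52.3 CPM and Smad6 had 4.05 and 3.28 against 55.2 and 18.0 CPM, while Bambi had 12.7 and 13.1 against 2.34 and 9.80 CPM. Of 25 genes of BMP ligands, receptors and antagonists, 7 were higher and 4 lower, near the shares of 29.2% and 18% over all genes with a count, and the receptor gene Bmpr1a had 9.09 and 18.2 against 86.8 and 29.2 CPM. Of 23 Wnt pathway genes, 9 were higher and 2 lower, and 13 stayed under 1 CPM in every library. Wnt5a had 1.88 and 2.75 against 17.8 and 7.72 CPM. The lower genes were Axin2, at 0.801 and 0.410 against 0.0411 and 0.0867 CPM, and Nkd1, at 0.164 CPM or less. Notum and Sfrp5, counted among the higher, stayed at 0.0434 CPM or less. The median log2 fold changes were 1.13, 0.34 and 1.66 for these 3 lists, beside -0.03 over all genes tested. They rest on the 12, 15 and 8 genes that passed the filter on low counts. Axin2 and Nkd1 did not pass it, whereas Sfrp4, with no count in MycCaP, passed through the MycCaP-BMP4 libraries alone. So did Atoh8 of the BMP targets, at 0.0801 and 0.164 against 13.2 and 1.95 CPM. Bmper, of the ligand, receptor and antagonist list, also did, at 0.0401 and 0.205 against 1.11 and 0.434 CPM. The Wnt median leaves out both lower genes as well. Nothing is read from any of the 3 medians. The osteoblast list had 6 of 14 genes higher and none lower, but Sp7, Bglap, Bglap2, Sost, Mepe and Phex stayed at 0.217 CPM or less in every library and Ibsp reached 2.02 CPM at most. No gene of the 24 lists passed the test across all genes.

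Partner and family genes were chosen for 18 of the 26 from known biology, after the 26 were known. Of these 43 genes, 12 lay higher in both MycCaP-BMP4 libraries, 8 lay lower and 23 overlapped, and none met the limits of the set. These counts are near the shares of 29.2% higher and 18% lower over all genes with a count, and nothing is read from them. By edgeR's quasi-likelihood test 0 of the 24 that could be tested passed, while 3 higher and 5 lower genes had an unadjusted p under 0.05, with a smallest adjusted p of 0.112.

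**Figure D4:**
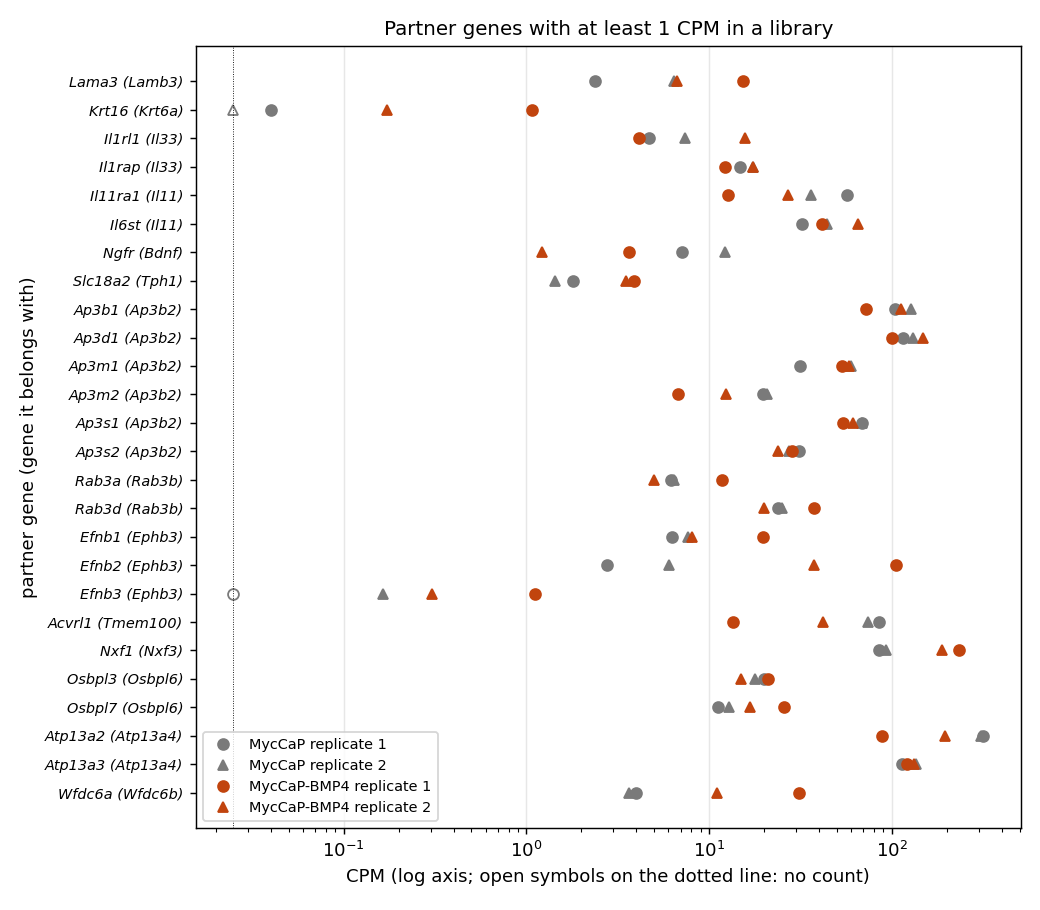
Each row is 1 of 26 partner genes with at least 1 CPM in a library, with the gene it belongs with in brackets, and each symbol is 1 library on a log axis of CPM (grey for MycCaP, orange for MycCaP-BMP4, circles for replicate 1 and triangles for replicate 2, open symbols on the dotted line for no count). Efnb2 and Wfdc6a lie higher in both MycCaP-BMP4 libraries, and Il11ra1, Acvrl1 and Ngfr lie lower.

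Over the whole table, edgeR's quasi-likelihood test called 0 of 14075 genes at a Benjamini-Hochberg adjusted p of 0.05 (0% called), and 2680 genes had an unadjusted p under 0.05. DESeq2 called 1385 genes and limma-voom 0, with 2743 at an unadjusted p under 0.05. Without MycCaP-BMP4 replicate 1 edgeR called 1043 genes and without replicate 2 it called 5753. All 26 genes entered the test and 0 passed, a count from which nothing is read, since the contrast chose them.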

How the data were processed

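Gene counts from HTSeq (whole numbers of reads) were deposited by the authors. The submitters' processing notes also name STAR 2.6.0b, Bowtie2 2.2.3, RSEM and GRCm38 (mm10), in roles not stated. Per the labels' protocols, polyadenylated RNA with an integrity number above 7 gave directional paired-end libraries. Annotation release and strand setting: not given in the sources used here. Of 39179 identifiers, 37607 had a symbol and GENCODE M21 coordinates.

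Summary lines naming no gene were dropped: reads outside genes were 3.37% to 6.03% of all reads, ambiguous ones 2.70% to 2.90% and multiply aligned ones 8.01% to 10.6%. CPM is counts over the gene count sum. All genes were tested with edgeR 4.0.16 (filterByExpr, TMM, quasi-likelihood F test, two-sided, Benjamini-Hochberg, 0.05), with DESeq2 1.42.0 and limma 3.58.1 as alternatives. The edgeR step was tested on simulated data. Replicates differed beyond sampling noise (chi-square per degree of freedom 46.4 and 303). Named genes were the 30 most abundant, thus all 26, list members, genes nearest the limits and neighbours. The partners, Mrps6, Slc5a3, Whamm, BC048679, Cpeb1, Orm1, Orm2, Krt6b, Wfdc6a and the list genes named as examples were chosen after values were seen. The 26 genes and the lists were chosen with earlier results of these data known. Some genes of the lists are not reported here.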

Additional observations from a re-analysis of the deposited data

How the results depend on the processing

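The number of genes in the set depended on its limits. It was 11 with a MycCaP limit of 0.5 CPM, 52 with 2 CPM, 57 with a MycCaP-BMP4 limit of 3 CPM and 4 with 10 CPM. TMM factors and DESeq2's size factors each took 26 genes, 25 of them shared with the 26. Leaving out 1 library gave 28 to 125 genes. A 2-fold excess in MycCaP-BMP4 replicate 1 over replicate 2 held for 18 of 26 genes, for 13 with either scaling, for 6 at 3-fold and for 4 of the 4 genes with at least 10 CPM in both. Leaving out a library was not possible for that ratio. Across all genes, 0 calls became 65 with library size alone, 1109 with no filter on low counts, 1385 with DESeq2's test and 0 to 5753 with 1 library left out (0 without either MycCaP library, 1043 without MycCaP-BMP4 replicate 1), where the lone library is assumed to vary like the other group. The replicate block gave 2 calls. Deviations of same-numbered libraries from their group means had a weak negative correlation (r = -0.13 across genes). With 2 libraries per group this is 1 value for both replicate numbers. A crossed replicate block, added after the data were seen, gave 689 calls. The labels do not tie same-numbered libraries together. The cause of these shifts was not tested. Of 312 log2 fold changes of the 26 genes over 12 other fits, 17 moved by more than the spread between the MycCaP-BMP4 libraries. Their sign is fixed by how the genes were chosen and is no sign of stability. At this depth 1 count is worth 0.0401 to 0.0434 CPM, so values under the floor carry little information.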

Other observations

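A rim of 9 genes met the MycCaP limit and fell short in MycCaP-BMP4 TAMs, with 4 to 5 CPM in their lower library. Lad1, which encodes the basement membrane protein ladinin, had 0.120 and 0.164 CPM (MycCaP), then 10.2 and 4.60 CPM (MycCaP-BMP4). Krt78, a type II keratin, had 0.761 and 0.287 CPM (MycCaP), then 8.76 and 4.51 CPM (MycCaP-BMP4), and Ovol1, an epithelial zinc finger transcription factor, had 0.240 and 0.943 CPM (MycCaP), then 5.96 and 4.08 CPM (MycCaP-BMP4). In each the lower of the MycCaP-BMP4 libraries was replicate 2. Dapl1 had 0 and 0.0820 against 12.5 and 4.51 CPM and Ceacam10 had 0 and 0.164 against 12.2 and 4.12 CPM. The receptor gene Adra1b, an alpha-1 adrenergic receptor, had 0 and 0.0410 against 8.10 and 4.99 CPM. These genes were chosen after their values were seen, and no test was made.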
